A study of Saccharomyces cerevisiae with 2 samples.

Results

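The nuclear genes for the intronless tRNAs of aspartate, glycine, histidine and cysteine of budding yeast that carry a guanosine at the wobble position were examined in S phase cells of a cdk1-as1 strain and a WT strain. They were chosen by name, as all nuclear genes of a deposited table of tRNA genes whose name begins with tD(GUC) for Asp, tG(GCC) for Gly, tH(GUG) for His or tC(GCA) for Cys, where the letters in brackets are the anticodon. The rule uses no measured value, but earlier results of these data were known when it was set. The 38 genes so found are 15 for Asp, 16 for Gly, 3 for His and 4 for Cys, out of 252 tRNA genes in the 3 deposited tables together, 239 of them nuclear. The table used for the choice holds 251 of the 252, and the other one is an Arg gene listed for WT alone. The study asked whether the cyclin-dependent kinase Cdk1, the main driver of the cell cycle, affects tRNA levels in S phase, and sequenced small RNA from 1 cdk1-as1 library and 1 WT library. The cdk1-as1 allele replaces the gatekeeper phenylalanine of the ATP pocket with glycine. This makes the kinase sensitive to the inhibitor 1-NM-PP1 and weakens it even when no inhibitor is present. The WT strain carries unaltered CDK1. Both cultures grew in YPD, were arrested with 15 mg/L α factor for 3 h, were released by washing, and were harvested once microscopy showed S phase. The labels name YPD with or without nocodazole for the release, and do not say which medium these cultures had.

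These tRNAs carry guanosine as the first base of the anticodon, the wobble base, which pairs with C or U as the last base of a codon. Each therefore reads a pair of codons: GAU and GAC for Asp, GGU and GGC for Gly, CAU and CAC for His, UGU and UGC for Cys. RNA polymerase III makes them from short genes with promoter elements inside the transcribed region, the A box and the B box, which bind the factor TFIIIC, and stops at a run of T after the gene. The precursor is trimmed at both ends and receives a CCA tail. None of these genes has an intron, so the mature tRNA cannot be told from its precursor by an intron, and mature tRNAs carry modified bases that can stop reverse transcription during library preparation.

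All copies of each of the 4 tRNAs listed here have 1 gene sequence, so 4 sequences stand for all 38 genes. They are printed 5′ to 3′ on the gene strand, with the anticodon in capitals, from the RefSeq assembly R64, which is the sacCer3 build used for the deposited tables. They are shown because fragments lying within them cannot be assigned to 1 copy by their sequence. The copies are tD(GUC)B at chrII:405960-406031 on the Watson strand, tG(GCC)D1 at chrIV:83548-83618 on the Watson strand, tH(GUG)E2 at chrV:434541-434612 on the Crick strand and tC(GCA)B at chrII:643007-643078 on the Crick strand.
tD(GUC)B: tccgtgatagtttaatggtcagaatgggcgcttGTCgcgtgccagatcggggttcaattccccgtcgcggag
tG(GCC)D1: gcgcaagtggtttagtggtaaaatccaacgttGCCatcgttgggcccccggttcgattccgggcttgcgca
tH(GUG)E2: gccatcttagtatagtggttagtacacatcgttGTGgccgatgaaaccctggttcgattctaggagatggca
tC(GCA)B: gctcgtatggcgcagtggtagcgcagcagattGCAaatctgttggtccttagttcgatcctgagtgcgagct
The Gly gene is 71 nt long and the other genes are 72 nt. The anticodon lies at bases 34 to 36 of the Asp and His genes and at bases 33 to 35 of the Gly and Cys genes. Aligned pairwise, the sequences were identical at 48% of positions for Asp and Cys, the least alike pair, and at 59.7% for Gly and His, the most alike. GC content was 47.2% in the His gene and 56.9% in the Asp gene, with 57.7% in Gly and 54.2% in Cys.

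The internal promoter letters differed in 1 element. An A box search with GNNNANNGG, part of the A box, found a match on the gene strand in all 4 sequences, and in 210 (76.4%) of the 275 annotated nuclear tRNA genes. A B box search with GTTCGANNC matched Gly, His and Cys and 200 (72.7%) of all genes, but not Asp. The Asp gene holds GTTCAATTC in that place, a match to GTTCAANNC, which 72 genes (26.2%) held. The reverse strand of 24 genes matched the A box letters, and no gene matched either form of the B box on its reverse strand. A T run of at least 5 stood within 30 nt after the gene in 37 of the 38 genes and in 97.8% of all 275. The exception was tC(GCA)G, with a longest run of 4. Long terminal repeats or Ty elements, which insert upstream of genes made by RNA polymerase III, lay within 1000 nt upstream of 26 of the 38 genes (68.4%), against 63.3% of all 275. By tRNA these were 9 Asp, 10 Gly, 3 His and 4 Cys genes. Over all genes of a tRNA with such an element upstream at any distance, the nearest lay at a median of 348 nt for Asp, 147 nt for Gly, 129 nt for His and 180 nt for Cys.

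The deposited values are an estimated count of fragments per gene, which need not be whole because a fragment that matches several genes can be divided among them, and an FPKM value, which relates fragments to gene length and library size. The study states that values were scaled with spike-in RNA. The cdk1-as1 library had 1570 counts over 207 listed tRNA genes (exact Poisson 95% interval 1493 to 1650) and the WT library 2952 counts over 244 genes (2846 to 3060), and FPKM summed to 4408120 in cdk1-as1 and 10626700 in WT. The lower totals in cdk1-as1 may hold the spike-in scaling, the depth of sequencing or the amount of tRNA, and these cannot be told apart here. Scaling both libraries to the same total adds 1.27 to every log2 ratio of FPKM and 0.91 to every log2 ratio of counts, and ratios are therefore given both as deposited and with equal totals. In bulk RNA, fewer cells and less RNA per cell cannot be told apart. With 1 library per strain no difference between strains could be tested, no p-value is given, and the intervals cover counting error only.

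In cdk1-as1 the 38 genes held 25.0 counts, 1.60% of that library (exact binomial 95% interval 1.03% to 2.34%). In WT they held 144 counts, 4.89% of the library (4.13% to 5.72%). The intervals of these shares did not overlap. Values were listed for 19 of the 38 genes in cdk1-as1 and for 34 in WT, against 198 and 232 of the 239 nuclear tRNA genes. A value in both libraries was given for all 15 Asp genes and for no other gene of the group, against 191 of 239 nuclear tRNA genes. The 16 Gly and 3 His genes had a value in WT alone, 19 of 38, against 41 of 239 nuclear tRNA genes (17.2%). The 4 Cys genes had a value in cdk1-as1 alone, against 7 of 239 nuclear tRNA genes (2.93%). As copies of a tRNA carry shared values, these 38 genes hold far fewer than 38 separate measurements.

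Within each tRNA the listed values followed the strand of the gene and not its place in the genome. All copies on the Watson strand of the reference had 1 value, all copies on the Crick strand had another, and no value was shared between strands. The 38 genes thus form 6 sets: Asp Watson (10 copies), Asp Crick (5), Gly Watson (8), Gly Crick (8), His Crick (3) and Cys Crick (4). The Asp copies lie on 9 chromosomes and the Gly copies on 10, so copies on different chromosomes had the same value while copies on 1 chromosome could differ. A further Asp gene, the last of 16 annotated, has another sequence and was not analysed here.

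**Figure D1:**
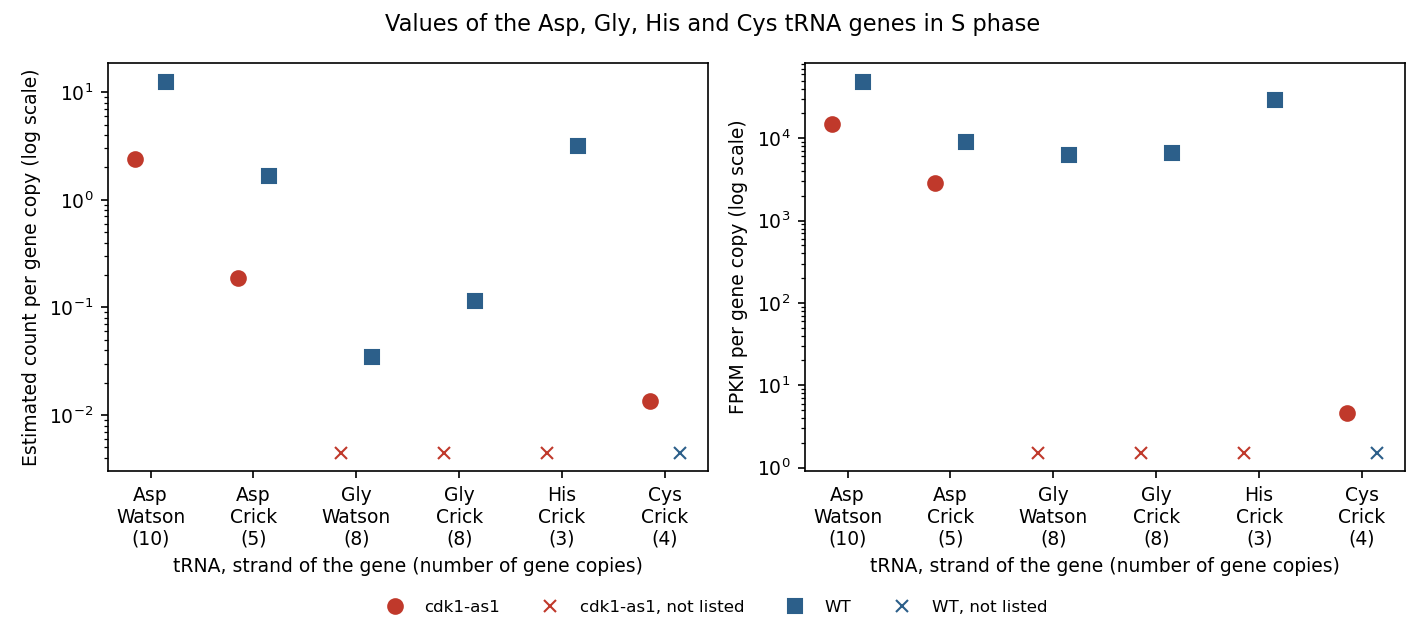
Estimated count (left) and FPKM (right) per gene copy, both on log axes, for the 6 sets of gene copies, with cdk1-as1 as circles and WT as squares in 1 library each. Crosses mark sets not listed in a library. Asp has a value in both libraries and is lower in cdk1-as1 on both strands, Gly and His appear in WT alone, and Cys appears in cdk1-as1 alone.

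The Asp tRNA held nearly all counts of the group, and its genes were lower in cdk1-as1. The 10 Watson copies, tD(GUC)B, D, G1, J1, J2, J4, L1, L2, M and O, each had 2.41 counts and 15005 FPKM in cdk1-as1, against 12.6 counts and 48715 FPKM in WT. The 5 Crick copies, tD(GUC)G2, I1, I2, J3 and K, each had 0.188 counts and 2856 FPKM in cdk1-as1, against 1.65 counts and 9118 FPKM in WT. The cdk1-as1 value was below the WT value on both strands and on both scales.

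In FPKM the Watson copies of the Asp gene in cdk1-as1 stood at 30.8% of WT (log2 ratio −1.70) and the Crick copies at 31.3% (−1.67). The ratio of FPKM was thus nearly the same on both strands. In counts the ratios were further apart and lower, with a log2 ratio of −2.38 for the Watson copies (95% interval of the summed counts −3.09 to −1.75) and −3.13 for the Crick copies (−8.47 to −0.10). The Crick value rests on 0.942 counts in cdk1-as1 and 8.25 in WT over 5 copies, and its interval holds that of the Watson copies. With equal totals the log2 ratios of FPKM were −0.43 for Watson and −0.41 for Crick copies, and those of counts were −1.47 for Watson copies (−2.18 to −0.84) and −2.22 for Crick copies (−7.56 to 0.81), so that with equal totals the interval of the Crick copies held 0.

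Summed over its 15 copies, the Asp tRNA had 25.0 counts in cdk1-as1 (exact Poisson 95% interval 16.2 to 36.9) and 134 in WT (112 to 159). This is 18.7% of WT, a log2 ratio of −2.42 (−3.10 to −1.80). With equal library totals it was −1.51 (−2.19 to −0.89), so the interval stayed below 0. The share of all counts was 1.59% in cdk1-as1 (1.03% to 2.34%) and 4.53% in WT (3.82% to 5.35%). The share of summed FPKM differed less, at 3.73% in cdk1-as1 and 5.01% in WT. The FPKM value per count was 6238 for the Watson copies in cdk1-as1, against 3881 in WT. Over all genes with at least 10 counts its median was 2425 in cdk1-as1 (range 1385 to 3165, 48 genes) and 3111 in WT (1890 to 4482, 73 genes). FPKM was therefore not proportional to counts for this tRNA, and the size of the difference depended on the scale read.

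A lower value in cdk1-as1 was common among nuclear tRNA genes. FPKM was at least 2-fold lower in cdk1-as1 for all 15 Asp genes, against 67% of the 191 nuclear tRNA genes with both values, and counts were at least 2-fold lower for all 15, against 59.7%. Any lower FPKM was seen in 91.1% of the 191 genes. With equal totals all 15 Asp genes were still lower, against 63.4% of genes in FPKM and 59.7% in counts. The median log2 ratio of FPKM was −1.70 over the Asp genes and −1.47 over nuclear tRNA genes outside the group, and that of counts was −2.38 against −1.49. Over gene copies, the FPKM ratio of Asp thus lay close to the median outside the group, and the ratio in counts lay further below. These medians count each copy of a shared sequence, and tRNA sequences were not ranked in FPKM.

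Copies with the same sequence were then summed into 1 value per tRNA sequence. Among the 33 nuclear tRNA sequences with at least 10 counts in WT, 29 had a summed count that was lower in cdk1-as1, and 16 with equal totals. The median log2 ratio was −0.89, or 0.02 with equal totals. Asp had the seventh lowest log2 ratio, −2.42. The 6 below it were those of tS(CGA)C (−3.32), tQ(UUG)C (−3.26), tL(UAG)L2 (−3.10), tR(ACG)D (−2.86), tT(AGU)D (−2.74) and tA(UGC)E (−2.55). Their intervals overlapped that of Asp, as did that of the next in order, tA(AGC)D, at −2.09. The Asp interval was narrower than those of all 7, which had at most 66.3 counts each in WT, against 134 for Asp.

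**Figure D2:**
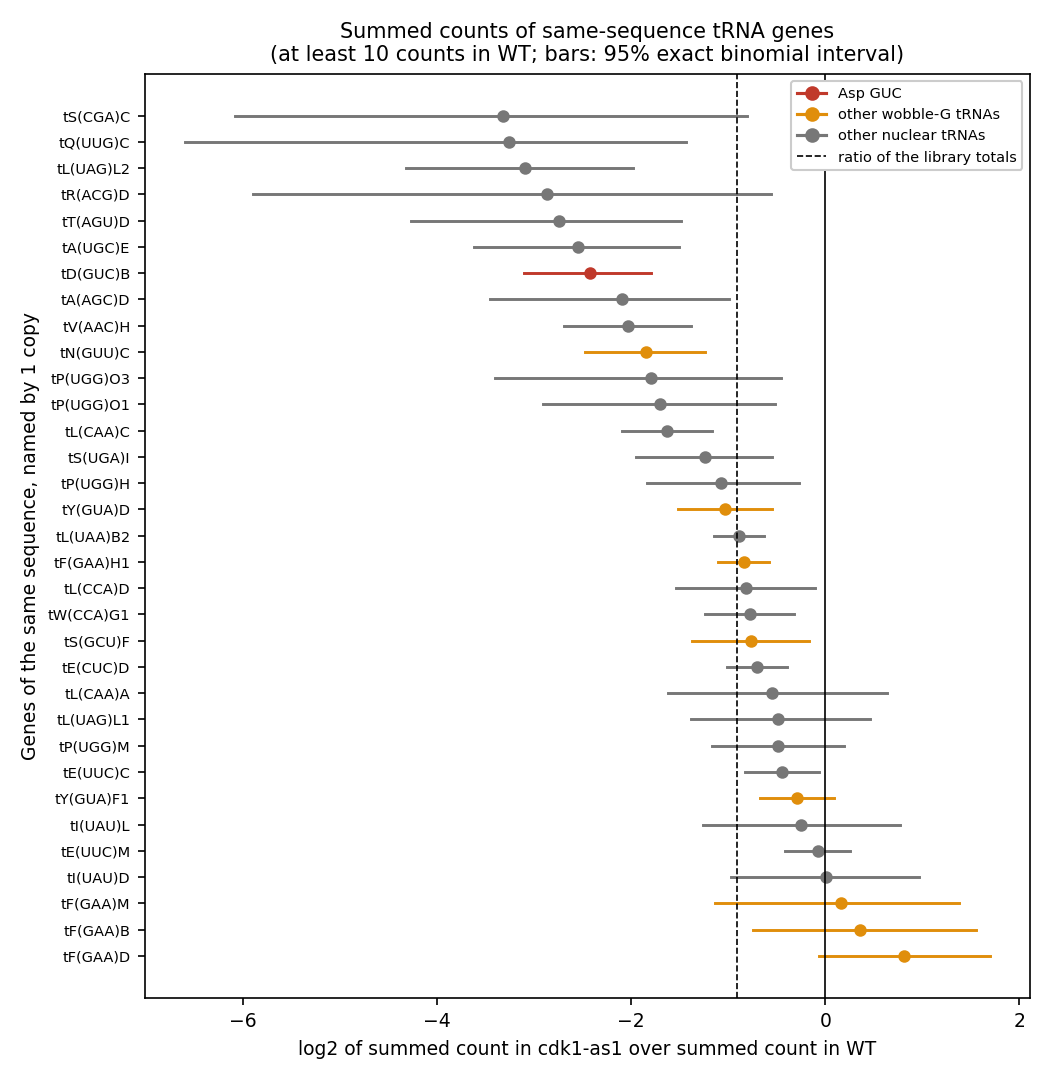
log2 ratio of summed counts, cdk1-as1 over WT, on the horizontal axis for the 33 nuclear tRNA sequences with at least 10 counts in WT, each named by 1 gene. Bars are exact binomial 95% intervals, and the dashed line marks the ratio of the library totals. Asp (tD(GUC)B, red) lies at −2.42, left of the dashed line over its whole interval, seventh from the lowest.

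The Gly tRNA with anticodon GCC was at the edge of detection. Its 8 Watson copies, tG(GCC)D1, D2, F1, G1, J2, O2, P1 and P, were not listed in cdk1-as1, and each had 0.0350 counts and 6338 FPKM in WT. Its 8 Crick copies, tG(GCC)B, C, E, F2, G2, J1, M and O1, were not listed in cdk1-as1 either, and each had 0.115 counts and 6556 FPKM in WT. Among them tG(GCC)C, F1, J2 and O2 are also known as SUF16, SUF20, SUF23 and SUF17, names given to frameshift suppressors.

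All 16 Gly copies together had 1.20 counts in WT (0.0253 to 5.57), below the floor of 3 counts set here. They had no value in cdk1-as1, so no ratio is given. Their FPKM summed to 103153 in WT, 0.971% of all FPKM, while their counts made up 0.0407% of all counts. The FPKM value per count was 181162 for the Watson and 56883 for the Crick copies. The FPKM values of these copies thus rested on less than 1 count per copy. The difference between strains for this tRNA was not detectable at this depth.

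Glycine has other tRNAs, with anticodons UCC and CCC, which read GGA and GGG codons. The 3 tG(UCC) genes had values in both libraries, with 3.36 counts in cdk1-as1 and 9.18 in WT, a log2 ratio of −1.45 (−4.11 to 0.42). The 1 tG(CCC) gene listed had 2.45 counts in WT and no value in cdk1-as1. In WT the order of the 3 glycine tRNAs depended on the scale. Summed counts were 1.20 for tG(GCC), 9.18 for tG(UCC) and 2.45 for tG(CCC), while summed FPKM was 103153 for tG(GCC), 56976 for tG(UCC) and 16775 for tG(CCC).

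The His tRNA was listed in WT alone. The genes tH(GUG)E2, G1 and K, all on the Crick strand, had no value in cdk1-as1, and each had 3.16 counts and 29273 FPKM in WT. The summed count in WT was 9.47 (4.12 to 17.1). A sum of 0 in cdk1-as1 allows up to 3.69 counts by the same interval, which lies below that of WT. At the depth of the cdk1-as1 library 5.03 counts would be expected at an equal share (2.19 to 9.08), which overlaps what a sum of 0 allows. Overlap of these intervals does not decide whether the strains differ with equal totals. No interval of the ratio was computed for this tRNA. The annotation holds 7 His genes with this sequence, and the 4 on the Watson strand were not analysed here.

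The Cys tRNA was listed in cdk1-as1 alone, at a trace. The genes tC(GCA)B, G, P1 and P2, all on the Crick strand, each had 0.0134 counts and 4.55 FPKM in cdk1-as1, and had no value in WT. Their sum was 0.0536 counts, under the floor of 3 counts, so it gives no direction. These 4 are all annotated nuclear Cys genes, and the tRNA that reads UGU and UGC was thus under 1 count in both libraries.

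Per copy, in genes of nearly the same length, the order of the sets in WT was the same in FPKM and in counts: Asp Watson, His Crick, Asp Crick, Gly Crick and Gly Watson. Counts per copy in WT were 12.6 for Asp Watson (95% interval 10.5 to 15.0), 3.16 for His Crick (1.37 to 5.69), 1.65 for Asp Crick (0.691 to 3.15) and 0.115 for Gly Crick (0.00316 to 0.696). By these intervals, which do not cover how fragments were divided among copies, Asp Watson stood apart from all others. The intervals of His Crick and Asp Crick overlapped, and so did those of Asp Crick and Gly Crick. Gly Watson, at 0.0350 (0 to 0.461), could not be placed apart from Gly Crick.

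For Asp the listed values of the strands had Poisson intervals that did not overlap in either library. These intervals do not cover how fragments were divided among copies of 1 sequence. In cdk1-as1 a Watson copy had 2.41 counts (1.54 to 3.57) and a Crick copy 0.188 (0.00506 to 1.11), and the Crick copies together held less than 1 count. In WT a Watson copy had 12.6 counts (10.5 to 15.0) and a Crick copy 1.65 (0.691 to 3.15). The order of the strands was the same in both libraries. For Gly in WT both strands summed to less than 1 count, and no order of the strands is given.

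The same pattern was present across the nuclear tRNA genes and is not particular to these 4 tRNAs. Of 56 listed sequences, 23 had copies listed on both strands (186 genes). In 22 of these 23 all copies on a strand shared 1 value, the exception being tS(UGA), and in none was a value shared between strands. Both strands had a value for 19 sequences in cdk1-as1 and for 22 in WT, and the lower strand summed to less than 3 counts in 11 of the 19 and in 10 of the 22, so the size of the difference between strands is not given for them. The Watson copies were higher in 9 of the 22 in WT and the Crick copies in 13. The higher strand was the same in both libraries for 17 of the 18 sequences with a value on both strands in both. His was 1 of 6 sequences annotated on both strands but listed on 1, which was the Crick strand in all 6. The sources used here do not say how fragments were divided among copies, and the part this played in the values was not tested.

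**Figure D3:**
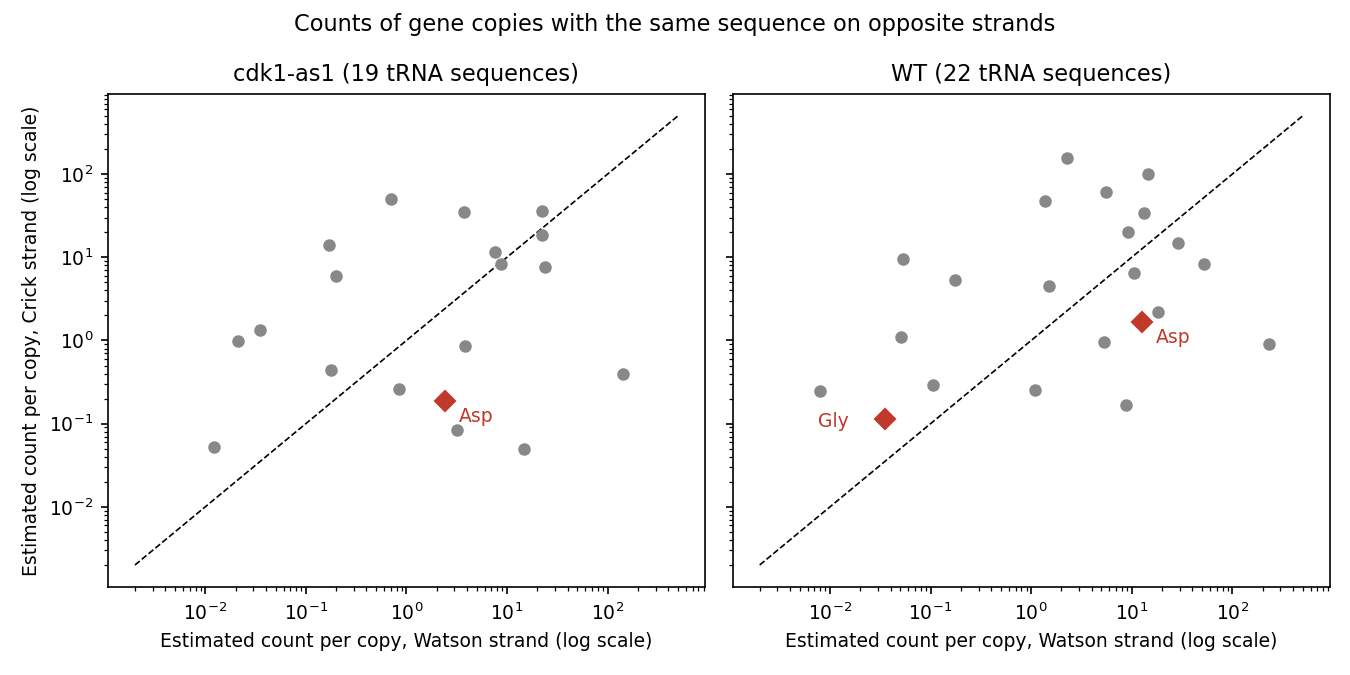
Estimated count per copy on the Watson strand (horizontal) and the Crick strand (vertical), on log axes, for tRNA sequences with copies listed on both strands, 19 in cdk1-as1 (left) and 22 in WT (right). Red diamonds are Asp and Gly, and the dashed line marks equal values. Asp lies below the line in both libraries, at 2.41 and 0.188 counts in cdk1-as1 and at 12.6 and 1.65 counts in WT, and Gly lies above it in WT at less than 1 count on each strand.

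Of the Asp genes, 4 lie in a tandem unit with an Arg gene, a tR(UCU) gene upstream and the tD(GUC) gene downstream on the same strand. In yeast such pairs are known to be transcribed together and then cut apart. The units hold tD(GUC)B, D and J2 on the Watson strand and J3 on the Crick strand, and all 4 have 1 sequence of 154 nt. The copy at chrIV:568882-569035 on the Watson strand is printed below, with the 10-nt spacer between the Arg gene and the Asp gene in capitals.
tR(UCU)D-tD(GUC)D: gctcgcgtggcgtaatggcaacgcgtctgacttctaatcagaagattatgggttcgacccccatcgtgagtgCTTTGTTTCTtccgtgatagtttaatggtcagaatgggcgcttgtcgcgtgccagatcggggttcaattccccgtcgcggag
The Arg genes were not listed in cdk1-as1, where the Asp partners had 2.41 counts on the Watson strand and 0.188 on the Crick strand. In WT the Arg gene of the Watson units had 0.0504 counts and 6727 FPKM, and its Asp partner had 12.6 counts and 48715 FPKM. In WT the Arg gene of the Crick unit had 1.10 counts and 15875 FPKM, and its Asp partner had 1.65 counts and 9118 FPKM. The Arg values rest on too few counts for a ratio. The Arg values were set by strand as well, and all 11 listed tR(UCU) genes summed to 5.78 counts in WT and had none in cdk1-as1. The 4 tandem Asp genes had the values of the 11 other Asp genes on their strand, so the tables do not separate them.

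The other nuclear tRNAs with a wobble guanosine were read beside these 4. Their 31 genes, for Asn (GUU), Phe (GAA), Tyr (GUA), Ser (GCU) and Leu (GAG), all had a value in both libraries, while 15 of the 38 genes of the group did. The 31 genes were chosen by anticodon and not split by whether they hold an intron, which the 38 genes lack. The part of introns in the values below was not tested. Of the 31 genes 29 had a lower FPKM in cdk1-as1, against 91.1% of the 191 nuclear tRNA genes with both values. At least 2-fold lower were 13 of the 31, against 67%, and the median log2 ratio was −0.99. With equal totals 13 of the 31 were lower in FPKM, against 63.4%, and the median was 0.28. Counts of all 31 genes summed to 487 in cdk1-as1 and 802 in WT, a log2 ratio of −0.72 (−0.89 to −0.56). This interval lies above that of Asp, −3.10 to −1.80.

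Among these, Asn came closest to Asp. The Asn genes had 29.8 counts in cdk1-as1 and 107 in WT, a log2 ratio of −1.84 (−2.47 to −1.24), which overlaps the interval of Asp, and 10 of 10 genes were lower in FPKM. The Phe genes had 254 counts in cdk1-as1 and 383 in WT (log2 ratio −0.59), and 8 of 10 were lower in FPKM. The Tyr genes had 163 counts in cdk1-as1 and 245 in WT (−0.59), and 8 of 8 were lower in FPKM. The Ser genes had 38.7 counts in cdk1-as1 and 65.7 in WT (−0.76), and 2 of 2 were lower in FPKM. With equal totals FPKM was lower for 10 of 10 Asn, 0 of 10 Phe, 2 of 8 Tyr and 0 of 2 Ser genes. The Leu gene had 1.20 counts in cdk1-as1 and 2.19 in WT, too few for a direction. With all genes of an anticodon pooled, the ratio ranged between −2.42 for Asp and −0.59 for Phe and Tyr among the tRNAs with at least 10 counts in both libraries. Single sequences within a pool differed. The Phe sequences with that many counts had −0.84 for tF(GAA)H1, 0.17 for tF(GAA)M, 0.36 for tF(GAA)B and 0.81 for tF(GAA)D. The intervals of the last 3 held 0. The part of the wobble base in these ratios was not tested.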

How the data were processed

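Small RNA was sequenced from S phase cultures, 1 cdk1-as1 and 1 WT library. Groups were taken from the genotype labels. For each library the authors deposited estimated counts and FPKM values of tRNA genes, made with the Ensembl R64 annotation and, per the submitters' processing notes, the genome build sacCer3, and normalized with ERCC spike-in RNA. Aligner and counting program: not given in the sources used here. A further deposited table sets RPKM values side by side and gives 0.1 to absent genes. Its RPKM values matched FPKM, at a relative tolerance of 1e-05, for 207 of 207 genes in cdk1-as1 and 243 of 243 in WT, where 1 further gene of the WT table, an Arg gene, has no entry in it. The authors' own columns in it (a log2 fold change, an FDR score and the log10 of each RPKM value) were not used.

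Members were selected by name. Genes were matched by position to RefSeq R64, in which all 239 nuclear genes were found, and sequences were read from that genome. Ratios are cdk1-as1 over WT, with no pseudocount. Copies sharing a sequence and values were described as 1 set, and all sets were named. Poisson and binomial intervals are exact (Clopper-Pearson for ratios and shares, on rounded counts) at 95%. The interval of the ratio was tested on simulated whole counts summed over many genes. That test does not cover sums of few counts or counts divided among copies. The members, lists and comparisons were chosen with earlier results of these data known. Alternatives were pseudocounts, minimum values, equal library totals, counts in place of FPKM and merging of identical copies. Python 3.11.15, pandas 2.3.3, numpy 2.4.6, scipy 1.17.1, biopython 1.88 and matplotlib 3.10.9 were used.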

Additional observations from a re-analysis of the deposited data

How the results depend on the processing

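With 1 library per strain no replicate could be left out and no spread between replicates is known. No paired analysis was possible because each strain has 1 library. The log2 ratio of FPKM of the Asp genes, a median of −1.70, was −0.43 with equal total FPKM and −2.38 when counts were used in place of FPKM. The log2 ratio of summed Asp counts, −2.42, was −1.51 with equal total counts and −3.13 for the Crick copies alone, an alternative chosen after seeing the data. Genes of the group with a value numbered 19 in cdk1-as1 and 34 in WT, 10 in cdk1-as1 and 18 in WT when at least 1 count was required, and 3 in cdk1-as1 and 5 in WT when identical copies were counted as 1. Of 38 alternative values 26 stayed within a set limit, 12 moved further and 0 changed sign, which only a log2 ratio could do. For all log2 ratios, also those of a single strand, the limit was the counting interval of the Asp counts summed over all copies. For summed Gly and His counts it was their own Poisson interval, and for numbers of genes it was 1.5 times. All 27 alternative log2 ratios were below 0. They are not separate checks, as the median over the Asp genes was in most settings the value of the Watson copies. A pseudocount cannot change the sign of a ratio. A minimum of 1 count left no Gly gene, and a mean of at least 10000 FPKM left no Crick copy of Asp, so these gave no value. The sums of Gly and Cys stay under 3 counts in both libraries, and the reason was not tested.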

Other observations

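Mitochondrial DNA encodes its own Asp and Cys tRNAs with the same anticodons, and these genes were outside the group. The mitochondrial Asp gene, tD(GUC)Q, had 1.44 counts and 755 FPKM in cdk1-as1, against 6.39 counts and 12295 FPKM in WT. Its log2 ratio of counts was −2.15 (exact binomial 95% interval −8.11 to 0.46), so a difference was not detectable at this depth. The mitochondrial Cys gene, tC(GCA)Q, had 2.89 counts and 16879 FPKM in cdk1-as1, against 0.950 counts and 4064 FPKM in WT, a log2 ratio of counts of 1.61 (−2.05 to 7.30). Its interval holds 0, and the nuclear Cys genes were listed in cdk1-as1 alone, at 0.0536 counts over 4 copies.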
